A study of Mus musculus with 14 samples.

Results

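The genes examined here make bile acids in the liver, or restrain their making. They are Cyp7a1, Cyp8b1, Cyp27a1, Cyp7b1, Hsd3b7, Akr1d1, Amacr, Slc27a5, Baat and Nr0b2, found by their symbols in the gene table of the series. The 10 symbols matched 10 of the 17552 genes of that table. Hepatocytes turn cholesterol into bile acids by a classic pathway, which begins with hydroxylation of the sterol ring by Cyp7a1, and by an alternative pathway, which begins with hydroxylation of the side chain by Cyp27a1 and goes on through Cyp7b1. The ring is then modified, the side chain is shortened in peroxisomes, and the product is joined to taurine or glycine before export into bile. Bile acids that return to the liver restrain the pathway in part through Nr0b2, the small heterodimer partner, a nuclear receptor that represses Cyp7a1 and Cyp8b1.

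Liver RNA came from male Apoe-deficient mice, which lack apolipoprotein E and carry high plasma cholesterol, on a C57BL/6J background. All of them ate a purified Western diet, and the groups were separated by its content of erythrodiol, a triterpene of the olive, which was absent in the control group and given at 10 mg/kg in the other. The labels give an age of 8 weeks and 8 weeks of diet for both groups, while the methods of the study give a longer period of feeding. RNA was pooled from a few animals per library, and 7 libraries were made per group.

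For genes, the table holds 1 value per group, an expected count that was summed over the 7 libraries of the group. The sums reached 122889032 counts for the control and 124686047 for erythrodiol. Replicate values for genes were therefore not analysed here, and no difference in this text has a replicate check, a standard deviation or a p-value. Intervals given with a fold are exact 95% intervals of a ratio of counts. For a change of the ratio between a pair of genes, the 95% interval is a normal approximation on the log scale. Both kinds of interval cover counting error only and are narrow at this depth, so they do not show how far the pools of a group differed from each other. The libraries held between 34856340 and 55244294 clean reads for the control and between 47669656 and 48058606 for erythrodiol. A single library supplied between 9.12% and 17.3% of the mapped pairs of the control group, and between 13.9% and 14.6% of those of the other group. Clean reads mapped to genes for 64.3% to 81.4% in the control libraries and for 73.0% to 76.1% in the erythrodiol libraries. The lowest share was that of control replicate 3, which stood apart from its group and cannot be taken out of the sums. Apoe, the targeted gene, was counted 9403 times in control livers and 8293 times with erythrodiol. A sum over a gene does not tell which part of its transcript the reads came from, so these counts do not check the genotype.

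Ratios were read on a pair of scales. On the first, each count was divided by the total of its group. On that scale the median over the 13291 genes with at least 100 counts in both groups together was 0.16 (log2 ratio of erythrodiol to control), and it moved with transcript length, from -0.18 among the 1331 shortest genes (333 to 1211 bases) to 0.33 among the 1329 longest (6116 to 26655 bases). On the second scale, the median log2 ratio of the 500 genes nearest in length was subtracted, so that 0 marks a gene that moved like genes of its length. Levels are compared between genes only as counts per kilobase of transcript per 1000000 counts of the group, called the level per length below.

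**Figure D1:**
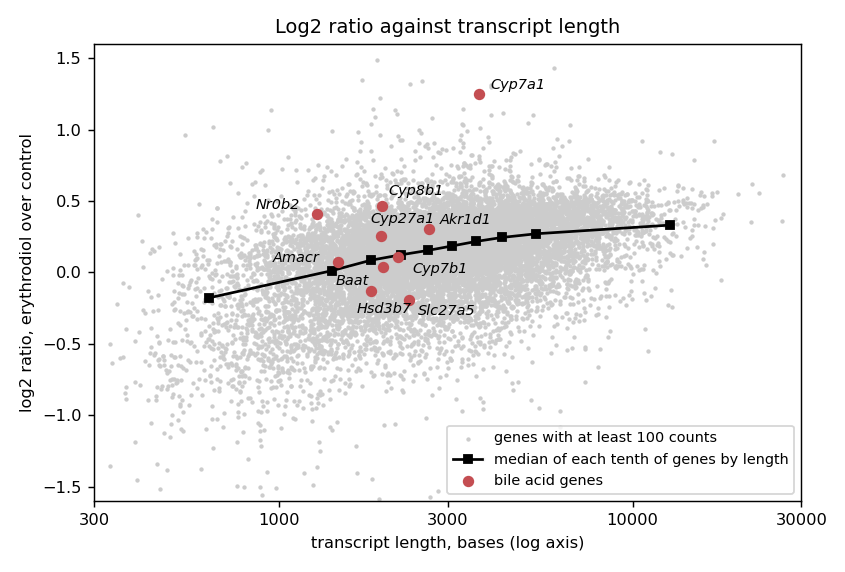
Each point is a gene with at least 100 counts, placed by transcript length in bases (log axis) and by its total-scaled log2 ratio, erythrodiol over control. Black squares join the medians of 10 classes of genes by length, which run from -0.18 to 0.33, red points are the bile acid genes, and 18 points beyond 1.6 in either direction are not drawn. Cyp7a1 stands at 1.249, above every gene near its length, and the other 9 lie among the grey points.

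Cyp7a1 was the gene of the set that differed most between the groups. It had 11875 counts in the control group and 28636 with erythrodiol, a level per length of 26.2 and 62.3. This was a 2.38-fold higher level with erythrodiol (95% counting interval 2.33 to 2.43). Cyp8b1 and Nr0b2 were also higher with erythrodiol by more than 25%, Cyp27a1 and Akr1d1 by less than that, and Slc27a5 and Hsd3b7 were lower. The summed count of the 10 genes was 2614 per 1000000 in the control group and 2857 with erythrodiol, 1.09-fold higher, and 1.04-fold higher when Cyp7a1 was left out.

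Cyp7a1, cholesterol 7α-hydroxylase, is the rate-limiting enzyme of the classic pathway and lies on chromosome 4 of GRCm38 (6265612 to 6275632). Its log2 ratio was 1.249, and 1.04 relative to genes of like length, a 2.06-fold difference. None of the 499 other genes nearest to it in length (3571 to 3803 bases) had a higher ratio, the highest of them being at 0.81 relative to their median. Among all 13291 genes, 10 had a higher ratio than Cyp7a1. Of the 802 genes with at least as many counts as Cyp7a1, 11 differed by more than 2-fold, and Cyp7a1 was the one of them that was higher with erythrodiol. That cut is the count of Cyp7a1 itself, to which its higher level with erythrodiol adds. Cyp2a4, with 24123 counts and a log2 ratio of 1.35, fell below the cut. In the order of levels per length, Cyp7a1 went from place 2052 of the 17552 genes in the control group to place 1031 with erythrodiol. The sums do not tell whether all 7 erythrodiol pools shared this difference. Were the whole excess held by the largest erythrodiol library, which supplied 14.6% of its group's mapped pairs, that library would have stood at 10.4-fold the control level.

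Cyp8b1, sterol 12α-hydroxylase, acts after Cyp7a1 and sets how much of the product becomes cholic acid. It lies on chromosome 9 (121914356 to 121916305), and its 1950-base transcript fills that span, so the gene has no intron. It had 31271 counts in the control group and 43735 with erythrodiol, a level per length of 130.5 and 179.9. The difference was 1.38-fold (1.36 to 1.40) and 1.28-fold relative to genes of like length, and 22 of the 499 genes of like length had a higher ratio. Cyp8b1 was thus also higher with erythrodiol, by a smaller factor than Cyp7a1.

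Cyp27a1, sterol 27-hydroxylase of the mitochondria, opens the alternative pathway and also oxidises side chains in the classic one. It lies on chromosome 1 (74713148 to 74737897), and its level per length was 170.0 in the control group and 203 with erythrodiol, 1.20-fold higher (1.18 to 1.21). Relative to genes of like length its log2 ratio was 0.15, and 112 of 499 such genes had a higher one. Cyp7b1, oxysterol 7α-hydroxylase, follows Cyp27a1 in the alternative pathway and lies on chromosome 3 (18071944 to 18243890). Its levels per length were 112 and 120.3, a 1.08-fold difference (1.06 to 1.09). This was the median of genes of its length, with a relative log2 ratio of -0.0056 and 253 of 499 genes above it.

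The first enzymes of the classic and the alternative pathway therefore stood in another proportion in the erythrodiol group. The level per length of Cyp7a1 was 0.154 of that of Cyp27a1 in the control group and 0.307 with erythrodiol, a 1.99-fold change of the ratio (1.94 to 2.04). Against Cyp7b1, it was 0.235 and 0.518, a 2.21-fold change (2.15 to 2.27). Against Cyp8b1, it was 0.201 and 0.346, a 1.72-fold change (1.68 to 1.77). These ratios do not depend on how the groups are scaled, though they do carry the movement with transcript length. The 4 hydroxylases together went from 924 to 1236 counts per 1000000, a 1.34-fold higher sum (1.33 to 1.35), and the sum without Cyp7a1 was 1.22-fold higher (1.21 to 1.23). The sum of the ring enzymes Hsd3b7 and Akr1d1 went from 643 to 625, 1.03-fold lower (1.02 to 1.04). That of Amacr, Slc27a5 and Baat went from 1014 to 953, 1.06-fold lower (1.06 to 1.07). All these sums are scaled by column totals, on which scale the median log2 ratio of all genes was 0.16.

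Hsd3b7, which oxidises the ring hydroxyl group of the 7α-hydroxylated intermediates of both pathways, lies on chromosome 7 (127800609 to 127803802) and had the highest level per length of the set. It stood at 289 in the control group and at 264 with erythrodiol, 1.10-fold lower (1.08 to 1.11), and 389 of 499 genes of like length had a higher ratio. Akr1d1, the 5β-reductase that bends the sterol ring into the shape of a bile acid, lies on chromosome 6 (37529978 to 37574921). Its levels per length were 44.0 and 54.3, 1.23-fold higher with erythrodiol (1.21 to 1.26). Relative to genes of like length, its log2 ratio was 0.14, and 130 of 499 such genes had a higher one.

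Amacr, the racemase that turns the side chain into the form that peroxisomes can shorten, lies on chromosome 15 (10981756 to 10996624) and had levels per length of 109 and 115, a 1.05-fold difference (1.03 to 1.07). The length used for Amacr was 1465 bases, while its assembled transcript, described below, held 2604. Its levels per length and its place among genes of like length rest on the shorter value. Slc27a5, the bile acid CoA ligase that readies bile acids for conjugation, lies on chromosome 7 (12988346 to 12998192). It had 74085 counts in the control group and 65592 with erythrodiol, levels per length of 258 and 225. It was 1.15-fold lower (1.13 to 1.16), and 1.27-fold lower relative to genes of like length, of which 441 of 499 had a higher ratio. Baat, which joins the activated bile acid to taurine or glycine, lies on chromosome 4 (49489416 to 49507915) and had levels per length of 128 and 132, a 1.03-fold difference (1.01 to 1.04). The level per length of Slc27a5 was 2.01 times that of Baat in the control group and 1.71 times with erythrodiol. Both genes lay within the 5th to the 95th percentile of genes of like length. How often other pairs of genes change by as much was not computed.

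Nr0b2 lies on chromosome 4 (133553376 to 133556686) and had the lowest level per length of the set in both groups. It had 3976 counts in the control group and 5344 with erythrodiol, levels per length of 25.2 and 33.4. The repressor was thus higher with erythrodiol together with Cyp7a1 and Cyp8b1, which it is known to repress. Its difference was 1.32-fold (1.27 to 1.38) and 1.34-fold relative to genes of like length, of which 22 of 499 had a higher ratio. The level per length of Cyp7a1 was 1.04 times that of Nr0b2 in the control group and 1.86 times with erythrodiol, a 1.79-fold change of the ratio (1.71 to 1.88).

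**Figure D2:**
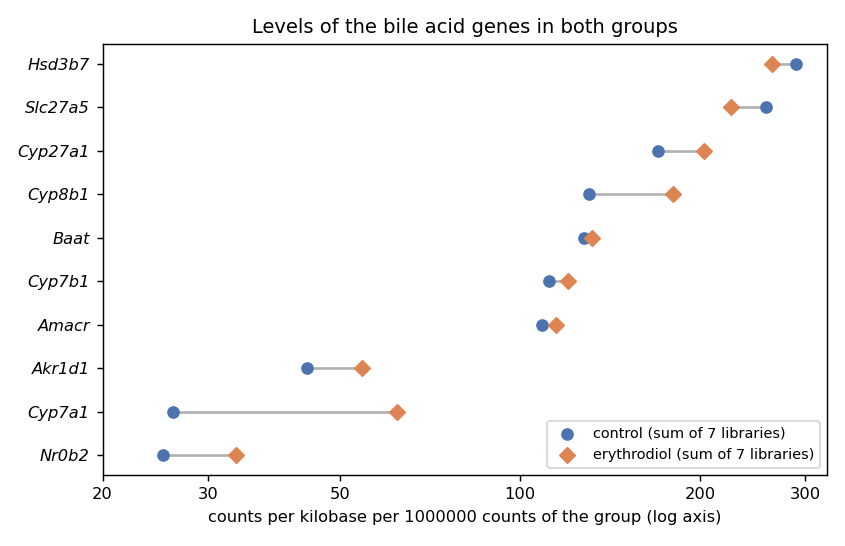
Levels of the 10 genes in counts per kilobase per 1000000 counts of the group (log axis), with circles for the control group and diamonds for the erythrodiol group, each 1 sum over 7 libraries with no replicate error. Cyp7a1 moved from 26.2 to 62.3 and passed Akr1d1, while the order of the 7 most abundant genes was the same in both groups.

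By level per length, the order in both groups was Hsd3b7, Slc27a5, Cyp27a1, Cyp8b1, Baat, Cyp7b1 and Amacr. Akr1d1, Cyp7a1 and Nr0b2 followed in the control group, and Cyp7a1, Akr1d1 and Nr0b2 with erythrodiol. In the control group the counting intervals of Cyp8b1 (129 to 132) and Baat (127 to 129.5) overlapped, as did those of Cyp7a1 (25.8 to 26.7) and Nr0b2 (24.5 to 26.0). No neighbours in the order overlapped with erythrodiol, where Cyp8b1 (178 to 182) stood above Baat (130.3 to 133) and Cyp7a1 (61.6 to 63.1) above Akr1d1 (53.5 to 55.1).

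**Figure D3:**
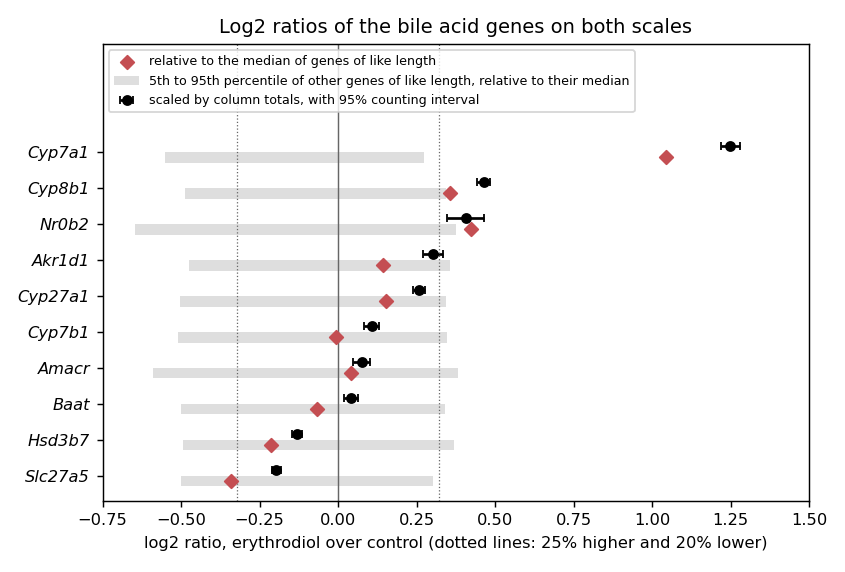
Log2 ratio of erythrodiol to control for each gene, as black circles when scaled by column totals (bars are 95% counting intervals) and as red diamonds relative to the median of genes of like length. Grey bars span the 5th to the 95th percentile of the 499 genes of like length, and dotted lines mark a level 25% higher or 20% lower. Cyp7a1 (1.04), Nr0b2 (0.42) and Cyp8b1 (0.36) lie past the grey bars, and the other 7 diamonds lie within them.

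As a set, the 10 genes had a median log2 ratio of 0.18, beside 0.16 over all genes tested. Of the 10, 8 were above 0 and 2 below, where 9462 of all 13291 genes were above and 3829 below. Relative to genes of like length the median was 0.09, with 6 above 0 and 4 below, where 6635 of all genes were above and 6655 below. All 10 genes had at least 100 counts. By column totals, 3 of 10 were higher with erythrodiol by more than 25% and 0 were lower by more than 20%, which is the same fold the other way, where 24.4% of all genes were higher and 8.89% lower. Relative to genes of like length, 3 of 10 were higher and 1 was lower, where the shares of all genes were 5.91% and 13.5%. Cyp7a1 alone lay past 1.5-fold and past 2-fold on both scales, and none of the 10 was lower by as much. When the genes of like length were also matched in count, the relative log2 ratio of Cyp7a1 was 0.98, just short of 2-fold. With the median of all genes set to 0, 1 of 10 was past 25% higher and 1 past 20% lower, and the shares of all genes under that scaling were not computed. Cyp7b1, Baat and Amacr lay so near to 0 that another scaling turned their sign. Hsd3b7, at -0.13, turned sign only when scaled by Ppib and Tbp, the reference genes of the study, where it stood at 0.0047. Of all genes, 2.55% were higher and 3.14% lower past 1.5-fold, and 0.218% were higher and 0.549% lower past 2-fold. Relative to genes of like length these shares were 1.02% and 3.52% past 1.5-fold, and 0.15% and 0.466% past 2-fold. The set as a whole was therefore close to all genes in its median, and its members differed among themselves over a range from -0.20 to 1.249.

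The 250 bases before the start of the gene were at hand for 5 of the 10 genes in the RefSeq table of GRCm38.p6. Those of Cyp8b1 and Nr0b2, which were higher with erythrodiol, and of Hsd3b7, which was not, are shown to set their short motifs side by side. Both strands were searched for 7 short motifs. AGGTCA is the single site of many nuclear receptors, AAGGTCA and the related AAGGCCA have the form bound by receptors that act alone, such as LRH-1, and CAAAGTC is a form bound by HNF4. The motif GTTAAT is part of the site of HNF1, TATAAA is the TATA box and CCAAT is a basal promoter motif. Capitals mark the matches.

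Cyp8b1, chr9:121916306-121916555, minus strand: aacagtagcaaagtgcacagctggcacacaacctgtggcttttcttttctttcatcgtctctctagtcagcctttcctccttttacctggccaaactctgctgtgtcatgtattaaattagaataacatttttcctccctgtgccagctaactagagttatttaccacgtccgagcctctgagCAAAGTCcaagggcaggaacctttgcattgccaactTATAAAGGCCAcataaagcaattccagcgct
Nr0b2, chr4:133553126-133553375, plus strand: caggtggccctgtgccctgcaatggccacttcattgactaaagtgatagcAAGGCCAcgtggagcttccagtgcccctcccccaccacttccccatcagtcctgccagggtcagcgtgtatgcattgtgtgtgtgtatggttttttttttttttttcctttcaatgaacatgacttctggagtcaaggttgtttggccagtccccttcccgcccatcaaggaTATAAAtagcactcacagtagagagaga
Hsd3b7, chr7:127800359-127800608, plus strand: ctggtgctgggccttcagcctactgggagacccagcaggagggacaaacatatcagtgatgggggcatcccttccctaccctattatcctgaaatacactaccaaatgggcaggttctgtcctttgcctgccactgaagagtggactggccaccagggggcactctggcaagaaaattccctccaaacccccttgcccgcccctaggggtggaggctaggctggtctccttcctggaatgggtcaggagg

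The window of Cyp8b1 held CAAAGTC at -67, counted from the start of the gene, and TATAAA at -31, which overlapped AAGGCCA at -27. That of Nr0b2 held AAGGCCA at -200 and TATAAA at -28, and that of Hsd3b7 held none of the 7 motifs. Of the windows not printed, that of Akr1d1 held AGGTCA at -232 and -210, and that of Cyp27a1 held CCAAT at -71 and -34. AAGGCCA occurs in 5.25% of the 32817 promoter windows of the table, CAAAGTC in 3.84%, TATAAA in 12.4%, AGGTCA in 14% and CCAAT in 33.8%. A match describes the letters of a window and is not a measured binding site.

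Other genes of the pathway were read from lists of 52 genes in all, of which 51 were in the table and 46 had at least 100 counts. Their median log2 ratio was 0.21, and 0.076 relative to genes of like length, on which scale 4 of 46 were past 25% higher and 3 past 20% lower, beside the 5.91% and 13.5% of all genes. On the same scale, 2 of 46 lay past 1.5-fold higher with erythrodiol and 0 past 1.5-fold lower, where 1.02% and 3.52% of all genes did. Cyp39a1, an oxysterol 7α-hydroxylase of the liver that acts on the ring as Cyp7a1 and Cyp7b1 do, had 3053 counts in the control group and 5665 with erythrodiol, 1.83-fold higher (1.75 to 1.91), and 0.69 in log2 relative to genes of like length. With Cyp7a1 and Cyp7b1, it makes a group of 7α-hydroxylases whose ratios ran from the median of genes of like length to far above it. Onecut1, the liver transcription factor HNF6, had 947 counts in the control group and 1975 with erythrodiol, and 0.96 in log2 relative to genes of like length.

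Of 15 other enzymes of synthesis, 14 had at least 100 counts, with a relative median of 0.056, and 3 were past 25% higher and 1 past 20% lower, beside the same shares of all genes. The higher ones were Cyp39a1, Cyp46a1 (0.46), which hydroxylates cholesterol mainly in the brain, and Ephx1 (0.39), an epoxide hydrolase. The lower one was Akr1c6 (-0.55), a hydroxysteroid dehydrogenase. Scp2, a sterol carrier and thiolase of the peroxisome, was the most abundant per length, at 1399 in the control group and 1291 with erythrodiol, and Ch25h, cholesterol 25-hydroxylase, the least, with 31 and 30 counts.

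Of 18 regulators, 17 had at least 100 counts, with a median of 0.38 and a relative median of 0.13. Past 25% higher were 9 of 17 by column totals where 24.4% of all genes were, and 1 of 17, Onecut1, relative to genes of like length, where 5.91% were. Nr1h4, the bile acid receptor FXR, stood at 0.046 on the relative scale, Nr5a2, the activator LRH-1, at 0.13 and Hnf4a at -0.037. Fgfr4 and Klb, which form the receptor for the intestinal hormone that restrains Cyp7a1, stood at 0.28 and 0.29, both short of 25% higher. Cebpa was the most abundant regulator per length (171 and 158), and Gpbar1, a bile acid receptor of other cell types, the least, with 2 and 3 counts.

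Of 13 bile transporters, 11 had at least 100 counts, with a relative median of -0.11, and 0 were past 25% higher and 2 past 20% lower, beside 5.91% and 13.5% of all genes. The lower ones were Abcc4 (-0.53), an efflux pump of the sinusoidal side, and Slco1b2 (-0.49), an uptake carrier. Abcb11, the bile salt export pump, stood at -0.0029 and Slc10a1, the sodium-dependent uptake carrier, at 0.11. Slc10a1 (353 and 399) and Slco1b2 (407 and 335) were the most abundant of the list per length, Slco1b2 leading in the control group and Slc10a1 with erythrodiol. Slc51b, a subunit of a basolateral exporter, was the least abundant, with 56 and 34 counts. Of 6 genes that modify bile acids, 4 had at least 100 counts and none was past either limit relative to genes of like length. Cyp3a11 was the most abundant per length (1708 and 1581). Sult2a2 had 10.75 counts in the control group and 0 with erythrodiol, too few for a fold, and near-identical copies can share its reads.

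**Figure D4:**
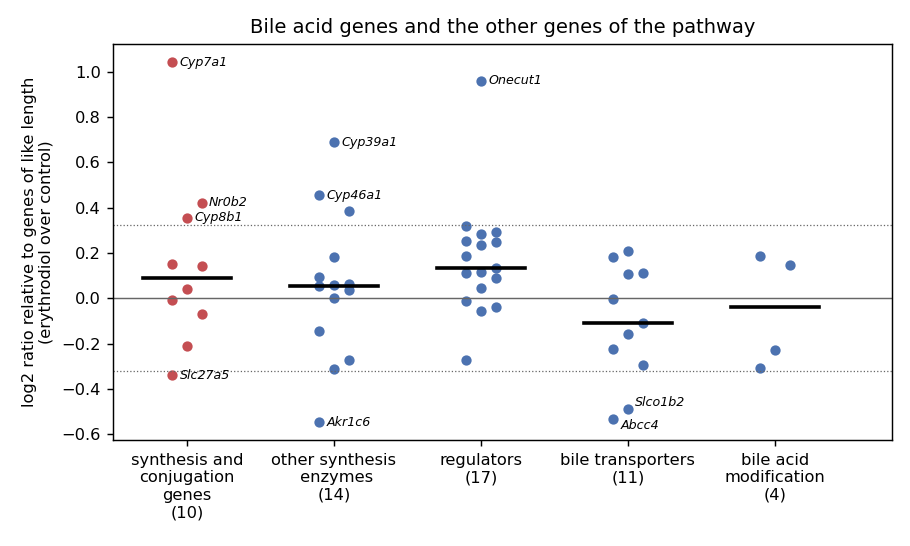
Log2 ratio of erythrodiol to control relative to genes of like length, 1 point per gene with at least 100 counts, for the 10 synthesis and conjugation genes (red) and for the other lists of the pathway (blue), with the number of genes under each list. Bars are medians and dotted lines mark a level 25% higher or 20% lower. The medians run from -0.11 for the transporters to 0.13 for the regulators, and Cyp7a1, Onecut1 and Cyp39a1 stand apart at the top of their lists.

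The annotation deposited with the table names a bile acid process for 43 genes, 6 of them among the 10. Of the 34 with at least 100 counts, 4 were past 25% higher and 3 past 20% lower relative to genes of like length, beside 5.91% and 13.5% of all genes, and the median was 0.087. Of these, Cyp7a1 and Cyp39a1 lay past 1.5-fold higher, where 1.02% of all genes did. The 10 genes given the term for bile acid biosynthesis had a relative median of 0.089. Past 25% higher were 2 of them and past 20% lower 2, beside the same 5.91% and 13.5% of all genes.

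Markers of cell types moved beside these genes. The 8 hepatocyte markers had a median log2 ratio of 0.18 by column totals, beside 0.16 over all genes. Relative to genes of like length, their median was 0.155. Alb, the main secreted product of hepatocytes, took 8.06% of all counts in the control group and 7.75% with erythrodiol. Kupffer cell markers were lower with erythrodiol in 8 of 8 genes by column totals, where 3829 of all 13291 genes were lower. Their sum went from 1091 to 701 counts per 1000000, 1.56-fold lower. Bile duct markers were lower in 6 of the 6 with at least 100 counts, beside the same share of all genes, and their sum went from 118 to 80.1 counts per 1000000. In whole liver, fewer cells of a type and less RNA per cell cannot be told apart. Pericentral hepatocytes are where Cyp7a1 is mainly made, and their 8 markers had a relative median of 0.092, beside 0.10 for the periportal markers. Both lists were split, with relative values from -0.62 to 0.35 for pericentral and from -0.49 to 0.50 for periportal markers. The sums of counts were 1.14-fold higher with erythrodiol for the pericentral and 1.32-fold higher for the periportal markers. The 8 endothelial and the 8 stellate cell markers had relative medians of -0.10 and -0.27, and medians of 0.11 and -0.059 by column totals. Of 8 acinar and 8 enterocyte markers, 2 and 3 had at least 100 counts. Cyp7a1 is known to follow the daily clock, and of 15 clock genes, a list added after values had been seen, 14 lay above 0 relative to genes of like length, as 6635 of all 13291 genes did, with a median of 0.17. Past 25% higher were 4 of the 15, where 5.91% of all genes were, namely Ciart (0.85), Per3 (0.46), Dbp (0.44) and Per1 (0.43). The part of cell makeup and of the hour of sampling in the differences of Cyp7a1 and the others was not tested.

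Transcripts were also assembled by the authors from the reads of all libraries, and they do not tell the groups apart. An assembled isoform was listed for 3 of the 10 genes, Cyp7a1, Akr1d1 and Amacr (30%), where 28.5% of all genes in the table have one. The assembled Cyp7a1 shared 5 of its 7 exons with GENCODE M21. Its sixth (chr4:6267171-6268508, minus strand) ended 1559 bases short of the last annotated exon but beyond the stop codon, which lies at 6268212 to 6268214. A further exon of 797 bases (6264113 to 6264909) lay outside the gene. The protein-coding part thus was that of the annotation, and the untranslated end differed.

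Of Akr1d1, 4 isoforms were assembled, all with a first exon of 20 bases (37529978 to 37529997) and a second that began 39 bases inside the first exon of GENCODE. The first ended early, at 37540388, with 6 exons. The second lacked the 117-base exon at 37536029 to 37536145 and kept the annotated last exon of 1692 bases. The others ended instead in exons between 37574298 and 37574934. The counts of Akr1d1 are summed over its transcripts, so which of these gave its 1.23-fold difference cannot be read from them.

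The assembled Amacr had 5 exons, of which the third (chr15:10984657-10984846, plus strand) began 29 bases upstream of that of the main annotated transcript, as in a second transcript of GENCODE. The start of this longer exon is shown with the 29 bases in capitals, since their number is not a multiple of the length of a codon.

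Amacr, chr15:10984657-10984695, plus strand: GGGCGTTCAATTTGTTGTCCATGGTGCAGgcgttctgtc

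Splicing events were deposited for 16 cases, and 0 of them lay in the 10 genes.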

How the data were processed

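Hepatic RNA of 7 control and 7 erythrodiol pools was sequenced, and groups came from the labels. The authors deposited 1 expected count per gene and group, estimated with RSEM after Bowtie2 alignment and not normalized. Its total matches the mapped pairs summed over the 7 libraries of a group. Beside it stand the authors' own log2 ratio, p-value and q-value, which were not used. The authors also deposited counts of clean reads and mapping rates in percent per library, and transcripts assembled with HISAT, StringTie and Cufflinks; versions are not given in the sources used here. Coordinates are those of GRCm38.

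With 1 sum per group there was no test and no design of replicates. Counts were divided by column totals, with exact binomial intervals at 95% for a ratio of counts, and exact Poisson intervals for levels. Changes of the ratio between a pair of genes had 95% intervals from a normal approximation on the log scale. The second scale subtracted the median log2 ratio of the 500 genes nearest in length with at least 100 counts. Counts past 25% higher or 20% lower, and past 1.5- and 2-fold, stand beside the same over all genes. Intervals cover counting error only, since reads of amplified libraries are not independent molecules. Depth was 122889032 and 124686047 counts. The ratios were tested on simulated counts with set changes, a trend with length and counting error. The simulation held no differences between pools, so it does not check that error.

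The members and lists were chosen with earlier results of these data known. Named are all 10 genes, genes of the pathway lists past 1.5-fold relative to genes of like length, the most and least abundant of each list by the mean level of both groups, Apoe, and Ppib and Tbp, the reference genes of the study. The clock list, the genes named past 25% higher or 20% lower, other regulators, transporters and markers named, the sums by role and the rank of Cyp7a1 among abundant genes were chosen after values were seen. Alternatives were other scalings, other numbers of genes of like length and other count minimums. Tables were read with pandas 2.3.3 and numpy 2.4.6 in Python 3.11.15, intervals came from scipy 1.17.1, and figures from matplotlib 3.10.9.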

Additional observations from a re-analysis of the deposited data

Results flagged for a closer look

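In the control library of replicate 3, 64.33% of clean reads mapped to genes, the lowest of its group and far from the other 6 control libraries, while the median of the group was 75.3% and its highest value 81.43%. The erythrodiol libraries lay between 72.96% and 76.13%. Chance alone marks about 1 in 20 groups of values in this way, and gene values without this library were not analysed here, since each group has 1 sum.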

How the results depend on the processing

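No paired analysis was possible because each gene has 1 sum per group, and for the same reason no library could be left out. Other scalings added between -0.16 and 0.14 to every log2 ratio. The median of the 10 genes, 0.18, became 0.020 with the median of all genes at 0, 0.074 without the 100 genes of highest count and 0.32 when scaled by Ppib and Tbp, whose own log2 ratios were -0.59 and 0.31. The number past 25% higher, 3, became 1 and 5 under the first and the last of these, and the number past 20% lower, 0, became 1 under the first. The number past 1.5-fold higher, 1, became 2 with Ppib and Tbp. The shares of all genes past these limits were not computed under the alternatives, so these numbers have no background beside them. Under the same 3 scalings, the median was 0.046, 0.10 and 0.34 for the other synthesis enzymes, 0.22, 0.27 and 0.52 for the regulators, 0.0065, 0.061 and 0.30 for the transporters, and -0.11, -0.057 and 0.19 for the modifying genes. Cyp7a1 stayed between 1.09 and 1.39. Relative to genes of like length, it lay between 0.98 and 1.07, and the number past 2-fold, 1, became 0 when genes were also matched within 4-fold of the count. Cyp8b1, Nr0b2, Cyp27a1 and Akr1d1 stayed above 0 and Slc27a5 below 0 under every alternative, while Cyp7b1, Baat, Amacr and Hsd3b7 changed sign under at least 1 scaling. Of 50 values relative to genes of like length, 49 kept their sign, the exception being 1 of Cyp7b1.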
